A study of Mus musculus with 9 samples.

Results

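The subject here is a set of 42 genes of the dividing cell, 19 whose products work at the start of DNA replication or during it (S phase genes) and 23 whose products work from the end of G2 to the end of mitosis (G2/M genes), out of 55416 genes counted. They were picked by symbol for their known roles in the cell cycle, with earlier results of these data known, and all 42 were found and passed the filter on low counts. The measurements are RNA sequencing counts from whole lenses of E16.5 embryos, each library made from both lenses of 1 embryo. The 4 *Atf4* null embryos (ATF4 knockout in the labels) were homozygous for the Atf4tm1Tow allele, and the 5 wildtype embryos were littermates from crosses of heterozygous parents on a mixed background of the C57Bl/6 and 129 strains. The allele is carried by every cell of the embryo, so that the lens and the tissue around it both lack ATF4, a transcription factor of the cellular stress response. The question taken up was whether lenses without ATF4 hold more or less of the transcripts that dividing cells make.

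In the embryonic lens, division is kept to the epithelium, a single cell layer over the front of the lens. Cells at its equator leave the cycle and elongate into fibre cells, which make up most of the tissue. Replication starts when the MCM helicase is loaded onto origins and fired by cyclin E and CDK kinases, while mitosis is driven by CDK1 with cyclins A and B. Successive waves of transcription accompany these steps, an E2F wave before S phase and a later wave from the MuvB complexes and FOXM1 before mitosis. The first acts through E2F sites, and the second through a short element called the cell cycle genes homology region, or CHR, often near CCAAT boxes.

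These elements can be seen in the members' own promoters, and 5 are shown because they carry them most plainly or belong to the genes on which the comparison turns. Each is the 150 bases before the start of the canonical transcript, in the GRCm39 build and read 5′ to 3′ on the strand of the gene, which is the minus strand for all 5. The regions are chr1:128287453-128287602 for *Mcm6*, chrX:92675814-92675963 for *Pola1*, chr10:69188769-69188918 for *Cdk1*, chr11:98915042-98915191 for *Top2a* and chr9:70328875-70329024 for *Ccnb2*. Capitals mark the letters of an E2F site, a CHR or a CCAAT box on either strand.
Mcm6: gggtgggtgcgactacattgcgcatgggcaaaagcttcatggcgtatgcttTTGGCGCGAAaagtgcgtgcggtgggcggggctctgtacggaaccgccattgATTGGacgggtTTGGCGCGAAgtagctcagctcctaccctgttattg
Pola1: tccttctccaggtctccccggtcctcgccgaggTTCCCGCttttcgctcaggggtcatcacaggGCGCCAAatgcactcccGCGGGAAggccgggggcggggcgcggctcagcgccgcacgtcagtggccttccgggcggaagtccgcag
Cdk1: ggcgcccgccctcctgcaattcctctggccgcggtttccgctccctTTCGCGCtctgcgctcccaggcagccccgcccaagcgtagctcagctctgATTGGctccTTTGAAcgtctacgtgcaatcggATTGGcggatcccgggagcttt
Top2a: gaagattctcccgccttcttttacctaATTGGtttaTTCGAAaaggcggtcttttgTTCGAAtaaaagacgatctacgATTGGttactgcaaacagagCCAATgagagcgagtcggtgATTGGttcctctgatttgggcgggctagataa
Ccnb2: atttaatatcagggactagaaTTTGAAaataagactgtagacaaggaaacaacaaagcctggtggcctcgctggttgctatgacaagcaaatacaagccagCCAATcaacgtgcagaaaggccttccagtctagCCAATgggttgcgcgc

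The E2F letters searched were TTCCCGC, then TTGGCGC, then TTCGCGC, and finally TTGCCGC, on both strands, in the 250 bases before and 50 after each start. They were found in 12 of 19 S phase promoters (63.2%) and 3 of 23 G2/M promoters (13.0%), against 15.8% of the promoters of 12851 protein-coding genes tested. In the *Mcm6* promoter above, 2 spellings on opposite strands overlap, and they do so at 2 places. The CHR letters, TTTGAA and TTCGAA, showed the opposite distribution, with 2 of 19 S phase promoters (10.5%), 13 of 23 G2/M promoters (56.5%) and 15.4% of all promoters. CCAAT was present in 12 of 19 and in 16 of 23 (69.6%), against 39.7% of all. TGATGCAA, the composite element that ATF4 binds with C/EBP partners, was in none of the 42 windows and in 0.521% of all promoters. A match is a description of the letters, not of binding, and a window without one says nothing about the factor.

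Before the cell cycle genes, the libraries themselves need a few words. Between 8409779 and 8906996 counts fell on genes in each wildtype library and between 7440807 and 8696699 in each null library. *Atf4* stood at 119 to 155 CPM (counts scaled to the library's total and by TMM factors) in wildtype and at 0.582 to 10.6 CPM in null lenses, with a log2 fold change of -4.55 ± 0.47 (SE). The markers of lens fibre cells were abundant in all libraries, with 11 of 12 detected and *Lim2* at 0 counts throughout, and all 12 of the lens epithelium were detected. Wildtype replicate 5 stood apart, with a summed level of 9591 CPM for 12 skeletal muscle markers and 14338 CPM for 10 mesenchyme markers, where the other wildtype libraries held 83.3 to 124 and 73.2 to 152 CPM. The mesenchyme markers summed to 456, 583, 355 and 233 CPM in null replicates 1 to 4, all above those 4 wildtype libraries, and without wildtype replicate 5 the quasi-likelihood test called 6 of 9 tested as higher in null lenses (488 of 14493 genes overall). The 12 markers of retina and neurons were all detected in both genotypes and summed to 392 to 1108 CPM in null and 229 to 407 CPM in wildtype libraries, and 5 of them, *Rax* and *Six6* included, passed the test as higher in null lenses, against 2.23% of all genes. Lens epithelium markers ran the other way, from 3598 to 4927 CPM in null and from 5242 to 7386 CPM in wildtype libraries, with 7 of 12 lower, against 3.67% of all genes. Erythroid markers summed to 182 to 254 CPM in null and 231 to 742 CPM in wildtype, endothelial markers to 178 to 391 and 334 to 608 CPM, and macrophage markers to 92.4 to 115 and 80.9 to 109 CPM.

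In wildtype lenses the members were expressed over a wide span. Per kilobase of exon, *Mki67*, which encodes the Ki-67 protein that coats mitotic chromosomes, was the most abundant with 46.6 ± 4.23 FPKM (SD, n = 5). *Top2a*, the topoisomerase that untangles sister chromatids, followed with 23.1 ± 1.98 FPKM. Next came *Tpx2* with 13.9 ± 1.76, *Uhrf1* with 13.3 ± 2.77, *Mcm2* with 13.1 ± 0.917 and *Pcna* with 12.9 ± 1.67 FPKM, whose spreads overlapped so that their order is not resolved. At the other end stood *Cdc6* with 1.29 ± 0.334, *Ttk* with 1.30 ± 0.161 and *Ccne2* with 1.32 ± 0.385 FPKM, also inseparable. The median was 5.19 FPKM for S phase genes and 5.83 FPKM for G2/M genes. The lowest count of a member in any library was 13, for *Cdc6*, and the highest was 7716, for *Mki67*.

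None of the 42 genes passed the test for a difference between *Atf4* null and wildtype lenses, and their fold changes lay on both sides of 0. No member had an adjusted p below 0.05 in the quasi-likelihood test of edgeR, adjusted by the Benjamini-Hochberg method over 14903 genes, of which 880 passed (5.90%). DESeq2 and edgeR's exactTest also called 0 of 42, with 9.37% and 7.11% of all genes called. At an unadjusted p below 0.05, 1 member passed, as lower, against 19.6% of all genes in either direction and 10.2% lower, and for 0 members did the 2 genotypes fail to overlap, against 10.2% of all genes. The lowest adjusted p was 0.274 among S phase genes and 0.212 among G2/M genes. Log2 fold changes (null over wildtype) ran from -0.45 to 0.53 for S phase genes, with 12 above 0, 7 below and a median of 0.03. For G2/M genes they ran from -0.60 to 0.41, with 17 above 0, 6 below and a median of 0.08, while the median of all genes tested was 0.00. The whole 95% interval lay within 1 of 0 on the log2 scale for 37 of 42 members. The widest bounds of any member were -1.23 (*Ccne2*) and 1.38 (*Rfc4*). In RNA of whole tissue, fewer dividing cells and less RNA per dividing cell cannot be told apart.

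**Figure D1:**
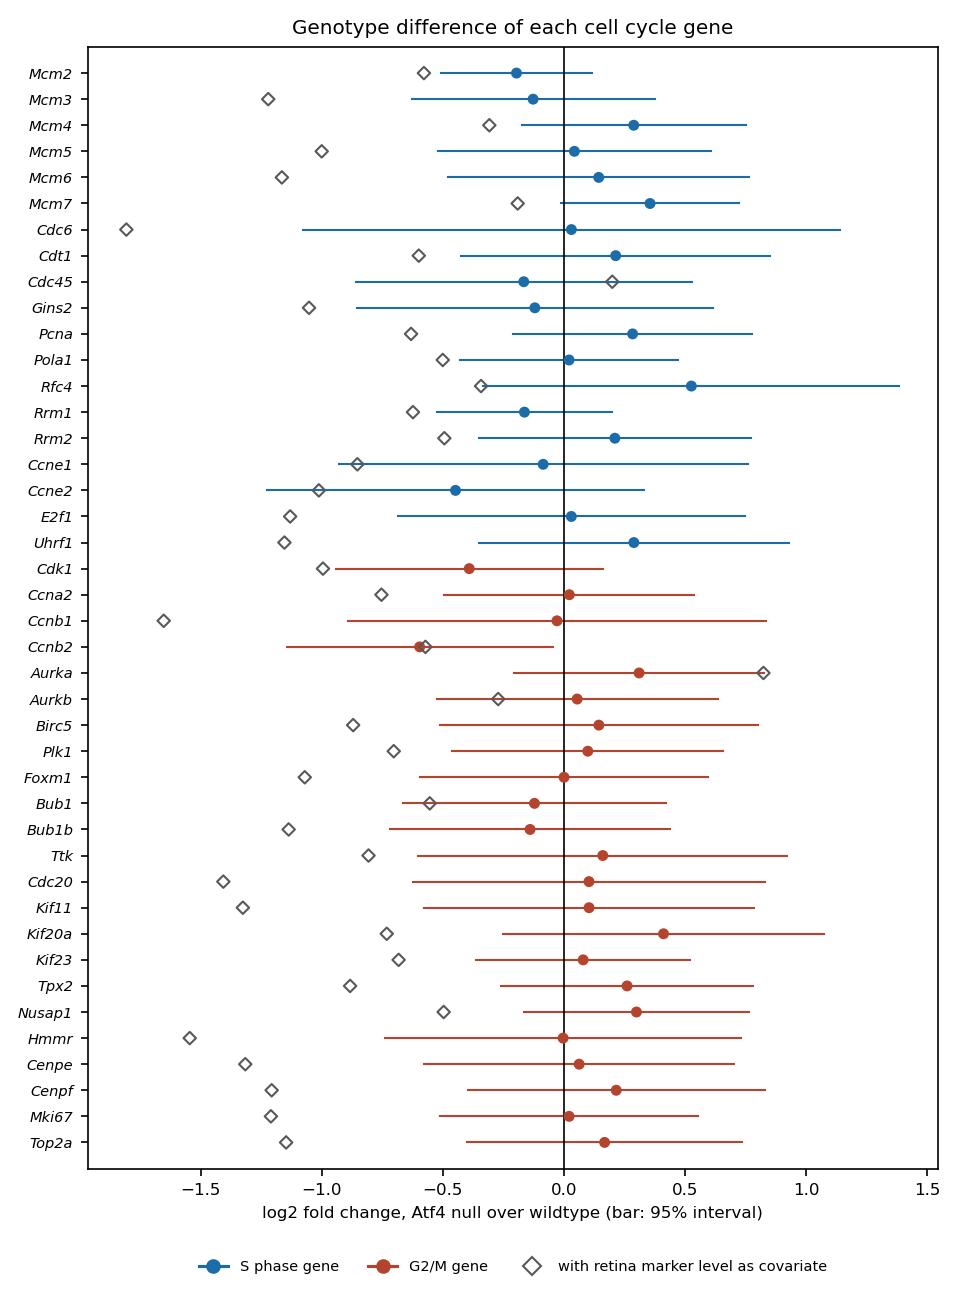
Log2 fold change of each of the 42 genes, *Atf4* null over wildtype, on the horizontal axis, with S phase genes in blue and G2/M genes in red. Bars are 95% intervals of the quasi-likelihood fit on 9 libraries, and open diamonds are the fit with the level of retina and neuron markers as a covariate. The filled points lie between -0.60 and 0.53, and the bar of *Ccnb2* is the one that does not reach 0.

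Among the 10 genes that load and fire the replicative helicase, 6 had fold changes above 0 and 4 below, with a median of 0.04. The 6 MCM proteins form the ring that unwinds DNA ahead of the replication fork. *Mcm2* stood at 101, 100.4, 98.4 and 62.2 CPM in null replicates 1 to 4, and at 108, 94.4, 110.1, 109 and 97.4 CPM in wildtype replicates 1 to 5 (log2 fold change -0.20 ± 0.14, SE). Null replicates 1 to 3 lay within the wildtype range and null replicate 4 lay below it. *Mcm6* stood at 104.3, 67.8, 87.7 and 24.8 CPM in null and at 67.5, 64.1, 57.1, 60.5 and 73.5 CPM in wildtype libraries (0.14 ± 0.29). Its null libraries lay on both sides of the wildtype range, replicates 1 and 3 above and replicate 4 below. *Mcm7* (chromosome 5, 138162844 to 138170684, minus strand) had the lowest unadjusted p of the S phase genes, 0.0571 in the quasi-likelihood test. Its values were 100.5, 66.5, 70.6 and 58.2 CPM in null and 49.8, 51.2, 66.2, 68.1 and 54.0 CPM in wildtype lenses (0.36 ± 0.17), with null replicates 2 and 4 inside the wildtype range. It shares exon bases with *Cops6* and *Ap4m1* on the opposite strand, and the strand setting of the counting is not given in the sources used here. *Mcm3*, *Mcm4* and *Mcm5* had log2 fold changes of -0.13 ± 0.23, 0.29 ± 0.22 and 0.04 ± 0.26.

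Of the helicase loaders *Cdc6* and *Cdt1*, *Cdc6* was low and variable, while *Cdt1* had a mean of 5.19 FPKM in wildtype lenses. *Cdc6* gave 12.5, 2.88, 11.5 and 1.89 CPM in null and 7.96, 8.64, 4.20, 6.33 and 8.25 CPM in wildtype lenses, so that null replicates 1 and 3 lay above all wildtype libraries and 2 and 4 below them. Its log2 fold change of 0.03 had a 95% interval from -1.08 to 1.14 and an SD of log2 CPM of 1.32 among null and 0.41 among wildtype lenses. *Cdt1* had a log2 fold change of 0.21 ± 0.30, with 32.7 CPM in null replicate 1 and 11.5 to 20.3 CPM in the others, against 13.1 to 21.0 CPM in wildtype. *Cdc45* and *Gins2*, which complete the active helicase, had values of -0.17 ± 0.32 and -0.12 ± 0.34, and *Gins2* shares 2758 exon bases with *Gse1* on the opposite strand. *Cdc45* departed from the other loading genes in its order of libraries, with its highest null level, 12.7 CPM, in null replicate 4 and its lowest, 7.77 CPM, in null replicate 1.

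The remaining S phase genes gave the same picture. *Pcna*, the sliding clamp of the replication fork, stood at 48.7, 35.0, 45.6 and 20.5 CPM in null and 25.9, 29.5, 34.6, 28.9 and 35.3 CPM in wildtype lenses (log2 fold change 0.28 ± 0.23). Null replicates 1 and 3 were above the wildtype range and null replicate 4 below it. *Rfc4*, a subunit of the clamp loader, had the highest S phase fold change, 0.53, with a wide interval from -0.33 to 1.38, and shares 368 exon bases with *Eif4a2* on the opposite strand. *Pola1*, the catalytic subunit of the polymerase that primes replication, had 0.02 ± 0.21. Of the 2 subunits of ribonucleotide reductase, which supplies deoxynucleotides, *Rrm1* had -0.16 ± 0.17 and *Rrm2* 0.21 ± 0.26. The cyclins E and the factor that drives their wave also overlapped between genotypes: *Ccne1* had -0.09 ± 0.39, *Ccne2* -0.45 ± 0.36 and *E2f1* 0.03 ± 0.33. *Uhrf1*, which helps to copy DNA methylation onto the new strand, varied widely among null lenses, with 143, 63.8, 98.03 and 36.8 CPM against 57.0, 84.5, 53.9, 70.1 and 84.6 CPM in wildtype (0.29 ± 0.30). Null replicates 1 and 3 were above all wildtype libraries and null replicate 4 was below them.

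Among the 9 genes of mitotic cyclins, kinases, the kinase partner *Birc5* and the activator *Foxm1*, 6 had fold changes above 0 and 3 below. The cyclin B2 gene *Ccnb2* (chromosome 9, 70314966 to 70328874, minus strand) was the member nearest to a call. It stood at 9.17, 9.36, 9.10 and 11.5 CPM in null and at 10.7, 19.9, 11.7, 13.9 and 17.7 CPM in wildtype lenses. Null replicates 1 to 3 lay below every wildtype library, and null replicate 4, which was low for most other members, was the highest of the null libraries here. The log2 fold change was -0.60 ± 0.26 (SE), with an unadjusted p of 0.0356 and an adjusted p of 0.212 in the quasi-likelihood test. An exact two-sided permutation test over the libraries, 126 arrangements in all, gave p = 0.0397, where 0.00794 is the smallest it can give, and no adjustment was made for the 42 genes. The value ranged from -0.69 to -0.47 over 17 other ways of fitting the counts, with adjusted p between 0.171 and 0.420. Its promoter is the last of those shown above, with a TTTGAA and 2 CCAAT boxes in the 150 bases.

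*Cdk1*, the kinase that cyclin B activates, had the next lowest G2/M value. Its levels were 21.9, 13.3, 20.6 and 9.90 CPM in null and 21.7, 27.4, 22.6, 19.1 and 17.3 CPM in wildtype lenses (log2 fold change -0.39 ± 0.26), with null replicates 1 and 3 inside the wildtype range. *Ccnb1*, which encodes the other main B cyclin, stood at 33.0, 20.9, 27.5 and 5.68 CPM in null and 22.9, 24.6, 10.6, 29.9 and 23.6 CPM in wildtype lenses (-0.03 ± 0.40). Its lowest and highest libraries were both null. *Ccna2*, cyclin A2, had 0.02 ± 0.24, *Plk1*, the polo kinase, 0.10 ± 0.26, *Aurkb* 0.05 ± 0.27 and its partner *Birc5*, survivin, 0.14 ± 0.30. *Foxm1*, the activator of the late wave, had nearly equal means, with 72.2, 48.1, 47.04 and 23.1 CPM in null and 42.4, 60.3, 42.2, 31.3 and 62.2 CPM in wildtype lenses and a log2 fold change of 0.00 ± 0.28. *Aurka*, the kinase of the spindle poles, had 0.31 ± 0.24 and varied less among null lenses (13.6, 18.4, 15.2 and 17.0 CPM) than in wildtype (18.4, 14.2, 10.5, 11.3 and 10.4 CPM), with SDs of log2 CPM of 0.19 and 0.35. Null replicate 4 was not low for this gene, which shares exon bases on the opposite strand with *Fam210b* and *Cstf1*.

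The spindle checkpoint holds anaphase until all chromosomes are attached, and its genes *Bub1*, *Bub1b* and *Ttk* had log2 fold changes of -0.12 ± 0.25, -0.14 ± 0.27 and 0.16 ± 0.35. *Cdc20*, which switches on the anaphase-promoting complex once the checkpoint is satisfied, had 0.10 ± 0.34, from 30.4, 19.9, 25.3 and 8.01 CPM in null and 15.1, 12.6, 22.0, 20.1 and 27.7 CPM in wildtype lenses. Among motors and spindle proteins, *Kif11*, the kinesin that pushes the poles apart, stood at 75.5, 65.9, 66.5 and 16.2 CPM in null and at 45.3, 56.4, 45.3, 60.4 and 53.7 CPM in wildtype lenses (0.10 ± 0.32). All of its null libraries lay outside the wildtype range, 3 above and replicate 4 below. *Kif20a*, a kinesin of cytokinesis, had the highest G2/M fold change, 0.41 ± 0.31, with 44.0, 48.4, 30.7 and 14.1 CPM in null and 19.9 to 37.1 CPM in wildtype lenses. It shares 2748 of its 5019 exon bases with *Cdc23* and 338 with *Brd8*, both on the opposite strand. *Kif23*, of the central spindle, had 0.08 ± 0.21, and the spindle assembly factors *Tpx2*, *Nusap1* and *Hmmr* had 0.26 ± 0.24, 0.30 ± 0.22 and -0.004 ± 0.34. The kinetochore genes *Cenpe* and *Cenpf* had 0.06 ± 0.30 and 0.22 ± 0.28. *Cenpf* ran from 78.2 CPM in null replicate 4 to 335 CPM in null replicate 1, with 157 to 216 CPM in wildtype.

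The transcript of the best known marker of dividing cells had nearly equal means and a wider spread in null lenses. It was measured in whole lenses. The study also stained the Ki-67 protein at this stage and found a smaller share of positive epithelial cells in null lenses. *Mki67* (chromosome 7, 135291513 to 135318299, minus strand) stood at 769, 459.6, 491 and 224 CPM in null and at 422, 475, 457, 505 and 535 CPM in wildtype lenses. Null replicate 1 was above every wildtype library, null replicate 4 was below every one, and the other null libraries lay among them. The means were 486 ± 223 (SD, n = 4) and 479 ± 43.4 CPM (SD, n = 5), and the log2 fold change was 0.02, with a 95% interval from -0.51 to 0.56. *Top2a* likewise had null replicate 1 above and null replicate 4 below all wildtype libraries, with 394, 224, 223 and 103 CPM in null and 192, 201, 202, 219 and 238 CPM in wildtype lenses (0.17 ± 0.26).

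**Figure D2:**
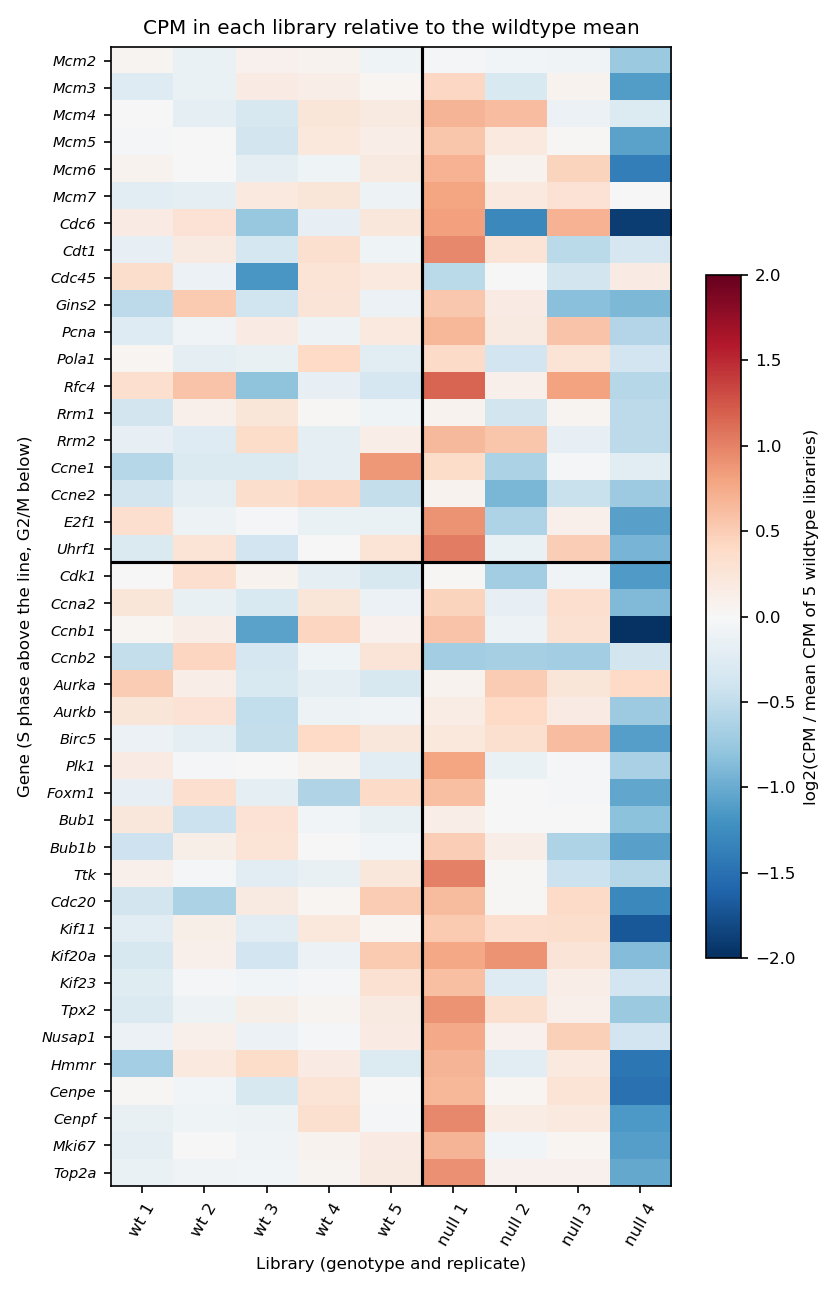
Level of each member in each library as log2 of its CPM over the mean CPM of the 5 wildtype libraries, with S phase genes above the horizontal line and G2/M genes below, wildtype on the left and *Atf4* null on the right. Red is above and blue below the wildtype mean, and colours saturate at 2. Null replicate 1 is mostly red and null replicate 4 mostly blue, with *Cdc45* and *Aurka* among the exceptions.

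Compared library by library, the members moved together. Null replicate 1 was the highest of all 9 libraries for 29 of 42 members, where it was highest for 14.2% of all genes tested. Null replicate 4 was the lowest for 33 of 42 members, 12 of 19 S phase and 21 of 23 G2/M genes, where it was lowest for 19.2% of all genes. It lay below every wildtype library for 34 of 42 members (27.2% of all genes). The SD of log2 CPM was larger among null than among wildtype lenses for 38 of 42 members, with median SDs of 0.67 and 0.25. Over all genes tested this held for 53.6%, with median SDs of 0.38 and 0.36. All members were measured in the same 9 libraries, so these counts describe 2 libraries and are not 42 separate observations.

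The summed levels show the same. The 19 S phase genes summed to 990.7, 674, 757 and 429 CPM in null replicates 1 to 4, and to 634, 671, 663, 728 and 703 CPM in wildtype replicates 1 to 5. Null replicates 1 and 3 were above and null replicate 4 below all wildtype sums, and the group means of 713 ± 232 and 679.7 ± 36.3 CPM (SD) lay close together. The 23 G2/M genes summed to 2422, 1537, 1599.5 and 728 CPM in null and to 1345, 1478, 1397, 1585 and 1603 CPM in wildtype lenses. Here null replicate 1 was above and null replicate 4 below all wildtype sums, with the other null sums inside the wildtype range. Relative to the wildtype mean, the median S phase gene was at a log2 ratio of 0.65, -0.01, 0.06 and -0.59 in null replicates 1 to 4, and the median G2/M gene at 0.61, 0.03, 0.17 and -1.03. In wildtype libraries these medians stayed between -0.18 and 0.08. Null replicates 1 to 4 held 20117, 19011, 19284 and 17783 genes with a count, which is the order of their sums, against 18807 to 20810 in wildtype. Reads that fell on no gene made up 24.39%, 18.5%, 19.49% and 15.75% of them, in the same order, against 20.44% to 26.06% in wildtype. Whether these differences bear on the members was not tested.

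**Figure D3:**
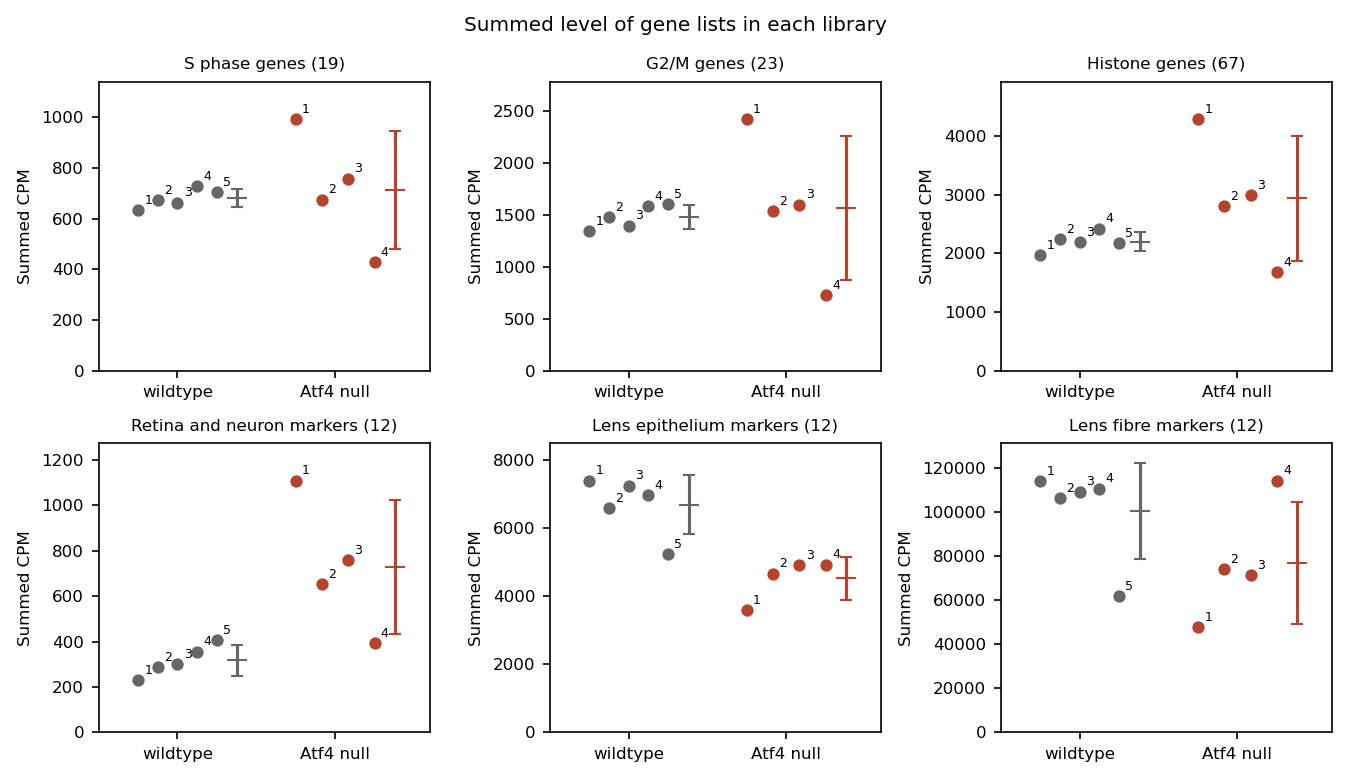
Summed CPM of 6 gene lists in each library (points, numbered by replicate), with the group mean and SD beside them and the number of genes of each list in its title. All axes start at 0. In the S phase and G2/M panels the wildtype points cluster between 634 and 728 and between 1345 and 1603 CPM, with null replicate 1 above and null replicate 4 below them in both panels and null replicate 3, at 757 CPM, above them for S phase.

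The balance of the 2 phases lay outside the wildtype range in null replicates 1 and 4, on opposite sides. The ratio of summed G2/M to summed S phase CPM was 2.44, 2.28, 2.11 and 1.70 in null replicates 1 to 4, against 2.12, 2.20, 2.11, 2.18 and 2.28 in wildtype. The means were 2.13 ± 0.32 and 2.18 ± 0.07 (SD). By medians it was null replicate 4 that stood apart: its median S phase gene stood 0.44 log2 units above the median G2/M gene, where the gap in the other 8 libraries ran from -0.11 to 0.04. The G2/M genes farthest down in it were *Ccnb1*, *Kif11*, *Cenpe* and *Hmmr*, with 5.68, 16.2, 27.7 and 9.61 CPM against wildtype means of 22.3, 52.2, 78.1 and 26.0 CPM.

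Leaving out a library moved the small medians across 0. Without null replicate 1 the median log2 fold change was -0.16 for S phase and -0.20 for G2/M genes, and without null replicate 4 it was 0.27 and 0.28. Without wildtype replicate 5, the library with most muscle and mesenchyme transcripts, the medians were 0.09 and 0.11. None of these fits called a member. The sign of 28 of the 42 fold changes turned under at least 1 of those 17 fits, whereas 14 kept 1 sign, so a direction is not given for most members. With library sizes in place of TMM factors, which moved the median of all genes to 0.13, the medians were 0.20 and 0.23.

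Markers of retina and neurons moved with the members across the null libraries. The retina and neuron list summed to 1108, 654, 759 and 392 CPM in null replicates 1 to 4, which is the order of their S phase and G2/M sums. It summed to 229, 289, 302, 356 and 407 CPM in wildtype replicates 1 to 5. Of these, replicate 1 also had the lowest S phase and G2/M sums. The highest G2/M sum was that of replicate 5, and the highest S phase sum, 728 CPM, was that of replicate 4. The lens fibre list ran in the reverse order in null lenses, with 47864, 74079, 71423 and 114152 CPM, against 106368 to 114122 CPM in 4 wildtype libraries and 61886 CPM in wildtype replicate 5. Of the retina list, *Rax* stood at 76.1 to 165 CPM in null and 34.7 to 61.1 CPM in wildtype lenses. *Crx* and *Isl1* were low in all libraries, with 1.602 to 25.5 CPM in null and 0.494 to 8.78 CPM in wildtype lenses.

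Fits with these levels as a covariate were added after the values had been seen. With the retina and neuron level in the model, 40 of 42 members had negative fold changes and 9 passed as lower, against 3.76% of all genes. The S phase genes among them were *Mcm3* (-1.22) and *Uhrf1* (-1.15), and the G2/M genes were *Mki67* (-1.21), *Top2a* (-1.15), *Cenpf* (-1.21), *Tpx2* (-0.88), *Cenpe* (-1.32), *Cdc20* (-1.41) and *Hmmr* (-1.55). For *Mki67* the adjusted p was 0.00314 and for *Top2a* 0.00719 in edgeR's quasi-likelihood test. The medians were -0.63 for S phase and -0.88 for G2/M genes, where that of all genes was -0.08. With the lens fibre level in the model instead, 38 of 42 fold changes were negative, the medians were -0.32 and -0.37, and 0 members passed, where 6.05% of all genes were called lower. Of the 42, 6 then had an unadjusted p below 0.05, all lower, against 12.7% of all genes, and the lowest adjusted p was 0.0597, that of *Mki67*. Of the 11 fibre markers tested, 2 were themselves called lower in null lenses without a covariate, against 3.67% of all genes. The fibre sum was also low in wildtype replicate 5, at 61886 CPM against 106368 to 114122 CPM in the other wildtype libraries. Null replicates 1 to 3 lay above every wildtype library in retina level, so this level and the genotype can be told apart only in part, and the share of retinal cells in the members' values was not tested.

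Around the members, 46 further S phase genes and 55 further G2/M genes from the same processes were examined. Of the S phase genes 0 were called by edgeR's quasi-likelihood test, DESeq2 or exactTest, against 5.90%, 9.37% and 7.11% of all genes. With an unadjusted p below 0.05 there was 1, *Rpa2* of the single-strand binding complex, at 0.57 ± 0.25, against 19.6% of all genes. With the retina level in the model 4 of the 46 were called, all lower (3.76% of all genes), and 40 fold changes were negative. Of the G2/M genes 2 were called, both higher, against 2.23% of all genes called higher. *Gtse1*, a microtubule-binding protein of G2 that is also induced by p53 and acts on it, stood at 29.0, 23.8, 18.2 and 23.1 CPM in null and 8.09, 5.18, 5.31, 5.44 and 7.71 CPM in wildtype lenses. *Psrc1*, a spindle protein likewise known as a p53 target, stood at 16.05, 16.1, 15.7 and 11.9 CPM in null and 6.42, 3.46, 3.95, 7.21 and 2.57 CPM in wildtype lenses. Neither overlapped between genotypes, and null replicate 4 was the lowest null library for *Psrc1* but not for *Gtse1*. Their log2 fold changes were 1.89 ± 0.24 (adjusted p = 0.000531) and 1.66 ± 0.34 (adjusted p = 0.00974), and 2 of the 55 genes were called under each of the 17 other fits. With the retina level in the model *Psrc1* lost its call (1.62, adjusted p = 0.0993), and of the 55 genes 1 was called higher and 8 lower, with 48 negative fold changes.

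Several regulators of the cycle passed the test. Of 39 regulators outside the 42 genes (cyclins, kinases and their inhibitors, E2F, MYC, retinoblastoma and MuvB factors, and others), 5 rose and 1 fell, against 2.23% and 3.67% of all genes. *Cdkn1a* (chromosome 17, 29309936 to 29319701, plus strand) encodes p21, the inhibitor that p53 uses to stop the cycle. It stood at 33.7, 69.2, 51.4 and 54.6 CPM in null and at 1.54, 1.73, 2.96, 1.52 and 8.78 CPM in wildtype lenses, with no overlap. *Ccng1*, cyclin G1 and another p53 target, rose with a log2 fold change of 1.27 ± 0.17, from 74.1 to 117 CPM in wildtype to 175 to 311 CPM in null lenses. It was highest in null replicate 4, in which the members were lowest. The G1 kinase gene *Cdk6* rose by 0.98 ± 0.16, with 57.9 to 81.0 CPM in null against 27.4 to 40.0 CPM in wildtype lenses.

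*Ccnd1*, the cyclin D1 gene that acts with CDK6 before S phase, stood at 674, 410.2, 407 and 306 CPM in null and at 256, 269, 237, 296 and 249.9 CPM in wildtype lenses. Every null library was above every wildtype library, though null replicate 4 only narrowly. Its log2 fold change was 0.78 ± 0.18 (adjusted p = 0.0237), and this call was lost without null replicate 2 or without wildtype replicate 1, 2 or 3, with log2 fold changes from 0.75 to 0.82 and adjusted p from 0.0507 to 0.0690, and with the retina level in the model (0.08, adjusted p = 0.860). *Btg2*, an antiproliferative p53 target, rose by 0.76 ± 0.19 (adjusted p = 0.0341). Its call was lost without null replicate 2 or 3 or wildtype replicate 1, 2 or 3, with log2 fold changes from 0.56 to 0.83 and adjusted p from 0.0563 to 0.126, and with the retina level in the model (0.49, adjusted p = 0.382). *Cdkn1c* encodes p57, an inhibitor that lens cells make as they leave the cycle, and it fell by 1.32 on the log2 scale. It stood at 463, 755, 690.0 and 716 CPM in null and at 1868, 1679, 1604, 1586 and 1475 CPM in wildtype lenses, and no library overlapped. With the retina level in the model 4 of the 39 regulators were called higher and 2 lower, *Mycn* (0.94) and *Cdc25a* (-1.35) among them, which were not called without it and are named after their values were seen. The number called was 4 to 8 over the 17 other fits.

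**Figure D4:**
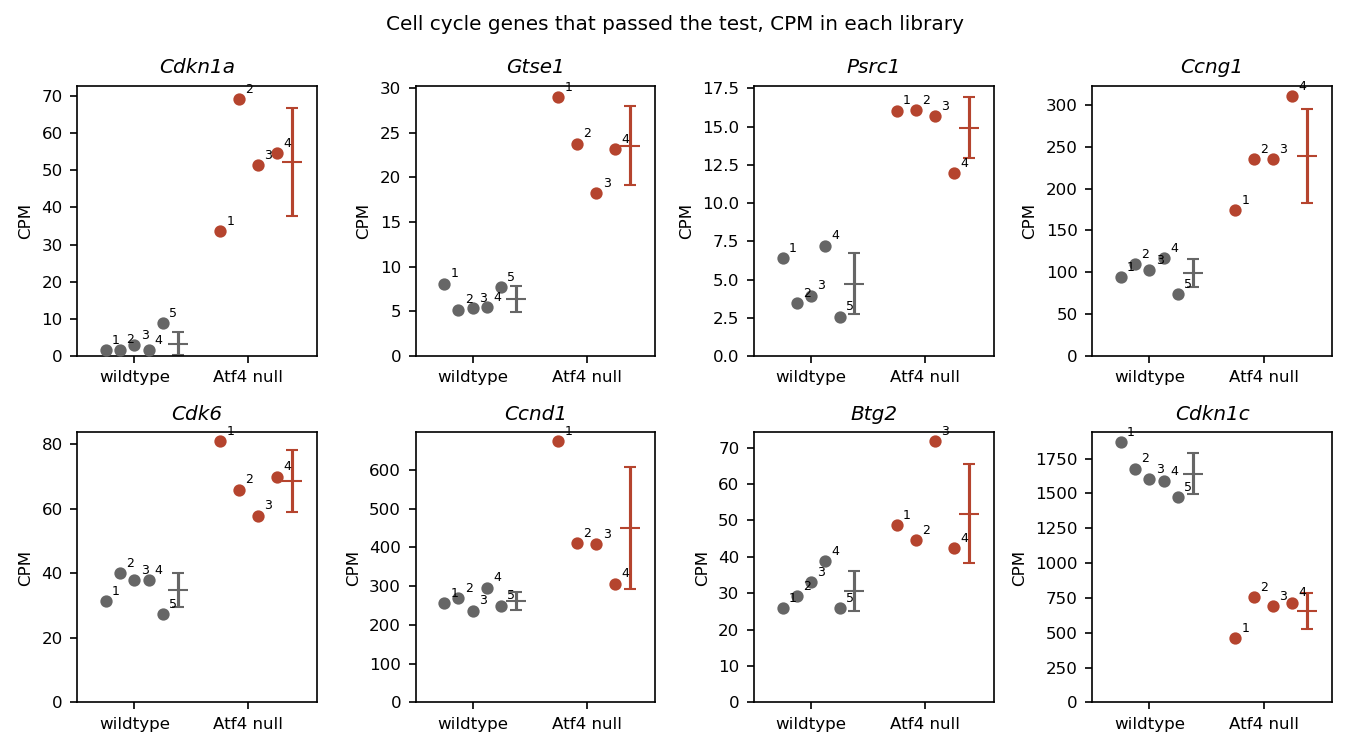
CPM in each library (points, numbered by replicate), with group mean and SD, of the 8 genes of the other G2/M and regulator lists that passed the test, wildtype in grey and *Atf4* null in red. All axes start at 0. The genotypes do not overlap in any panel, 7 genes are higher in null lenses, and *Cdkn1c* is lower.

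The replication-dependent histone genes, transcribed in S phase to package new DNA, had mostly positive fold changes, and most turned negative with the retina level in the model. Of 67 such genes 62 were tested, and their sum was 4280.4, 2799, 2989 and 1681 CPM in null against 1966 to 2418 CPM in wildtype lenses. Null replicates 1 to 3 were above the wildtype range and null replicate 4 was below it, so the order of the null libraries was that of the S phase members. The median log2 fold change was 0.41, with 59 above 0 and 3 below, and 8 genes had an unadjusted p below 0.05, all higher, where 9.31% of all genes did. *H2ac25*, a gene of histone H2A, was the 1 that was called (1.25 ± 0.29, adjusted p = 0.0206), where 5.90% of all genes were, with 12.7, 14.2, 15.5 and 18.9 CPM in null and 3.95 to 9.37 CPM in wildtype lenses. It was highest in null replicate 4, unlike the sum, and lost its call without null replicate 2, 3 or 4 or wildtype replicate 3 (log2 fold changes from 1.13 to 1.28, adjusted p from 0.0506 to 0.0615) and with the retina level in the model, where its fold change was 1.44 (adjusted p = 0.0627). With that level in the model 50 of the 62 fold changes were negative, the median was -0.48 and 6 genes were called, all lower, against 3.76% of all genes and a median of -0.08. With the lens fibre level instead the median was 0.06, with 38 above 0 and 24 below. In fits with neither level the number called was 8 without null replicate 4, where 845 of 15572 genes were, and 0 without null replicate 2, null replicate 3 or wildtype replicate 3, where 527 to 562 of all genes were. Many of these genes are near-identical copies, so that reads fitting several of them may not have been counted.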

How the data were processed

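RNA from single pairs of E16.5 lenses was sequenced from 4 *Atf4* null and 5 wildtype embryos. The authors trimmed reads with Trim Galore, removed ribosomal reads by alignment with HISAT2, and counted the remaining GRCm39 alignments per gene of Ensembl release 104 with HTSeq. The deposited values are counts per gene, with no normalization. Their 5 summary entries, 44.6% to 47.7% of a library, were left out. Symbols and positions came from GENCODE M39, of the same build.

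Counts were compared with edgeR 4.0.16 in R 4.3.3 (filterByExpr, TMM, glmQLFit, glmQLFTest) over 14903 genes, with Benjamini-Hochberg adjustment and a threshold of 0.05. The study used edgeR's exactTest, which was an alternative here. CPM are TMM-scaled, FPKM divide them by exon length, and SE and 95% intervals come from the fit and the spread between these embryos. On simulated counts for 14359 genes, the test recovered 35.1% of changes of 1 and 70.1% of changes of 2 on the log2 scale, and 8.11% of its calls were genes left unchanged, above the threshold. Promoters were searched with Python 3.11.15.

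The members and lists were chosen with earlier results of these data known. Named were all members, and from each other cell cycle list at most 4 called genes per direction whose mean count reached 20 in either genotype, plus *Cdkn1a*, *Ccnd1* and *Atf4*. *Rpa2* and the marker genes were named after their values were seen. Of the members, 15 share exon bases with a counted gene on the opposite strand. Replicate numbers follow the titles. For wildtype, titles and count tables carry different library names of the same genotype. Alternatives were DESeq2 1.42.0, exactTest, library sizes, TMM without crystallins, a robust fit, no filter, 10 counts in every library, a replicate block and each library left out.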

Additional observations from a re-analysis of the deposited data

Results flagged for a closer look

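Within each genotype, the highest or lowest library was compared with the rest by its gap over the range (Dixon's 95% limit), in 134 groups, of which 12 stood out. About 1 in 20 groups does so by chance.

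Among the members, null replicate 4 stood apart for 4 genes. *Mcm2* was at 62.2 CPM there, against 98.4 to 101 CPM in the other null lenses, *Bub1* at 8.74 CPM against 15.5 to 16.8, and *Kif11* at 16.2 CPM against 65.9 to 75.5. *Ccnb2* was the one that was high in this library, at 11.5 CPM against 9.10 to 9.36. *Psrc1*, which rose in null lenses, was at 11.9 CPM in null replicate 4 and at 15.7 to 16.1 CPM in the others.

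Among wildtype lenses, *Ccne1* was at 11.8 CPM in replicate 5 against 4.37 to 5.70 CPM in the others, *E2f1* at 23.1 CPM in replicate 1 against 16.7 to 17.9, and *Cenpf* at 216 CPM in replicate 4 against 157 to 167. *Cdkn1a* was at 8.78 CPM in wildtype replicate 5 against 1.52 to 2.96 CPM. The same library held 9591 CPM of skeletal muscle markers, 14338 CPM of mesenchyme markers and 61886 CPM of lens fibre markers, against 83.3 to 124, 73.2 to 152 and 106368 to 114122 CPM in the other wildtype libraries.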

How the results depend on the processing

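No member was called under any of the 17 other fits chosen in advance of the covariate fits, in which the lowest adjusted p was 0.137. Of 714 member values in those fits, 629 kept their sign and 85 did not. Over all genes, 880 calls became 1397 with DESeq2, 1794 with the lens fibre level as a covariate and 527 to 1207 with 1 library left out. Without 1 library, further S phase genes called ranged from 0 to 1 and histone genes from 0 to 8; histone calls were 2 with DESeq2 and 2 with no filter. The retina and neuron level as a covariate, added after seeing the data, gave 2 S phase and 7 G2/M members, 4 further S phase, 9 further G2/M and 6 histone genes called, all lower but 1 of the further G2/M genes, with medians of -0.63 and -0.88 for the members. It called 1241 genes in all, 680 higher and 561 lower. The histone genes turned to a median of -0.48, though *H2ac25*, the 1 called without it, stayed at 1.44. Of the regulators it called 4 higher and 2 lower. Under it the sign turned and the call was gained for *Uhrf1* (-1.15), *Cdc20* (-1.41), *Tpx2* (-0.88), *Cenpe* (-1.32), *Cenpf* (-1.21), *Mki67* (-1.21) and *Top2a* (-1.15); the cause was not tested.

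Libraries with the same replicate number did not deviate together (correlations of -0.13, -0.02, -0.02 and 0.01), so the numbers do not pair them. With the number as a replicate block, which drops wildtype replicate 5, 873 genes and 0 members were called, with medians of 0.01 and 0.02, and *Btg2* lost its call (0.70, adjusted p = 0.0617 in the quasi-likelihood test). The interval of *Cdc6*, with 13 to 125 counts a library, spans -1.08 to 1.14 (how much of that is depth was not tested). Intervals of other members reached -1.23 (*Ccne2*) and 1.38 (*Rfc4*). The data exclude neither changes in the members within such intervals nor opposite changes in different cells of the lens.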
